A study of Mus musculus with 58 samples.

Results

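The genes described here are the nuclear-encoded subunits of the oxidative phosphorylation (OXPHOS) complexes. They were chosen by symbol alone, as every gene of the count matrix whose Ensembl identifier maps to a symbol of the Nduf (a, b, c, s or v), Sdh (a to d), Uqcr, Cox4 to Cox8 or Atp5 families, with the 7 pseudogenes whose symbol carries -ps left out. The choice gave 91 of 56953 genes, of which 41 belong to complex I, 4 to complex II, 8 to complex III, 19 to complex IV and 19 to complex V. After a filter on low counts (at least 5 reads in more than 3 libraries), 83 of the 91 were tested, namely 39, 4, 8, 14 and 18 of the respective complexes. Of the 91, 4 (Ndufa11b, Ndufb4c, Ndufs6b and Cox6c2) are processed pseudogenes in the annotation used, although their symbols passed the choice. Ndufb1 is a non-coding gene called Ndufb1-ps in that annotation, and it was kept under its RefSeq symbol. The rule itself uses symbols and no measured value.

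The libraries were made from adipose stem cells (ASC) sorted from inguinal white adipose tissue (iWAT) of C57BL6/J mice, as CD45-/CD31-/CD34+ cells without DPP4 (ASC1) or with DPP4 (ASC2) on their surface. Surgery (castration of males, ovariectomy of females) took place at 4 weeks of age, and tissue was taken at 10 weeks, after a fast of 4 h. There were 58 bulk Smart-seq3 libraries in 8 groups. ASC1 was represented by 7 libraries from control males, 8 from castrated males, 8 from control females and 3 from ovariectomized females ("ovariex" in the labels), and ASC2 by 8 libraries in each of these conditions. By the study's methods the libraries of a group are biological replicates. The labels tie no library to a mouse, and ASC1 and ASC2 of a condition, which may come from the same mice, were tested as independent libraries.

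OXPHOS is the process by which mitochondria oxidize NADH and succinate and store the energy as ATP. Electrons enter at complex I (NADH dehydrogenase) or complex II (succinate dehydrogenase), pass through complex III (the cytochrome bc1 complex) and cytochrome c to complex IV (cytochrome c oxidase), and the proton gradient built on the way drives complex V (ATP synthase). Most subunits are encoded in the nucleus and imported, a small core is encoded by mitochondrial DNA, and complex II, which also is an enzyme of the TCA cycle, is entirely nuclear. In fat the pathway is best known from brown and beige adipocytes, and stem cells of white fat use it together with glycolysis.

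Because the members are a family of genes with known promoter elements, the 120 bases before the transcription start are printed for 6 of them (RefSeq, build GRCm38.p6). Atp5b, Cox7a2l, Atp5h and Atp5e are shown because they are among the genes with a difference below, Ndufa6 because it holds the NRF1 letters, and Sdhd because it comes from complex II. Capitals mark the motifs found.
Atp5b, chr10:128083187-128083306, plus strand: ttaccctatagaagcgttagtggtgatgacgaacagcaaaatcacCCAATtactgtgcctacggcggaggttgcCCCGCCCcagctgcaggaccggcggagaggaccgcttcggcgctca
Ndufa6, chr15:82354292-82354411, minus strand: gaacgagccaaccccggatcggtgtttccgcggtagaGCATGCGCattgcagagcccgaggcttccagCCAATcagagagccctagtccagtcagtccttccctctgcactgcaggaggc
Cox7a2l, chr17:83514334-83514453, minus strand: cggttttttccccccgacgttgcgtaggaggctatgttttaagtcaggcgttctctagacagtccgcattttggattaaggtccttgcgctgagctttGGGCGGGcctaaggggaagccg
Atp5h, chr11:115419920-115420039, minus strand: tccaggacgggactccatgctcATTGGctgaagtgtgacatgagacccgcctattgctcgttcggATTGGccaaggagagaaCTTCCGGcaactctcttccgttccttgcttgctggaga
Atp5e, chr2:174464102-174464221, minus strand: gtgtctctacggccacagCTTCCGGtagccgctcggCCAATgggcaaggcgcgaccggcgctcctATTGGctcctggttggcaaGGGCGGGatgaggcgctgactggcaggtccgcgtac
Sdhd, chr9:50603850-50603969, minus strand: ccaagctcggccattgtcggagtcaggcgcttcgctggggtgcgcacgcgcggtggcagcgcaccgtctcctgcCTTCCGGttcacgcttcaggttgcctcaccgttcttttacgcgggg
The capitals stand for the letters of the SP1 motif, the CCAAT box, the NRF1 motif or the ETS motif (the kind of site bound by GABP), each in either orientation and spelled out with its share below. No 2 of the matches shown overlap. Promoter windows of 300 bases, from 250 before to 50 after the start, were at hand for 70 members (75 windows) and were compared with all 32851 windows, both strands searched. The NRF1 letters GCATGCGC stood in 13.3% of the members' windows and in 2.71% of all windows. The ETS letters CCGGAAG stood in 22.7% and 8.86%, and the YY1 letters AAGATGGC in 13.3% and 2.75%. The SP1 letters GGGCGGG stood in 34.7% and 25.6%, and the letters CCAAT in 42.7% and 37.4%. TATAAA, the TATA box, was in 12% and 13.6%. These are matches of letters and say nothing about whether a factor was bound.

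The depth ranged from 106562 to 1421518 counts per library (median 682400), and 9122 to 15026 genes had a read. The libraries that stood apart were of 3 kinds. The 3 ovariectomized ASC1 libraries had summed fibroblast markers (Pdgfra, Col1a1, Dcn, Lum) of 43144 to 45105 CPM (counts scaled to a common library size) against 3024 to 13976 in all others, and summed proliferation markers of 8.0 to 13.8 against 91.4 to 797 CPM. In 6 libraries the cytosolic ribosomal protein genes summed to under 50000 CPM, namely control female ASC1 F, castrated ASC2 J and M, and control male ASC2 C, D and F. In 25 libraries the reads of Xist and of Y-linked genes went against the labelled sex, ties being counted as against. Together with those that held both kinds they came to 27. These were all 8 castrated ASC1, 6 of 8 control female ASC2 and 5 of 8 control female ASC1 libraries. The others were 4 of 7 control male ASC1 and 4 of 8 control male ASC2 libraries. Another measure, which the study also reports on these samples, went with the labels in the controls. Sult1e1, an estrogen sulfotransferase, had at least 22.7 CPM in each of the 15 libraries labelled control male and at most 4.84 CPM in the 16 labelled control female. C7, a complement component, had at least 122 and at most 20.8 CPM in the same libraries. The control libraries with discordant or mixed sex-linked reads thus lay on the side of their label in both genes. Within control male ASC2, however, Sult1e1 was at 34.6 to 84.3 CPM in the 4 such libraries and 90.9 to 154 CPM in the 4 concordant ones. Outside the controls, C7 was at 50.3 to 285 CPM in the 3 ovariectomized ASC1 libraries, which overlaps control male ASC1 (122 to 337 CPM). It was at most 14.4 CPM in the other libraries after surgery. The paper takes low Ddx3y and Eif2s3y counts in its control female samples as a sign of weak contamination by male mRNA. "Male" and "female" below mean libraries labelled as such, and the source of the discordant reads was not tested. The sort was visible in Dpp4, with group medians of 7.64 to 33.9 CPM in ASC1 and 87.6 to 241 CPM in ASC2, and Ucp1, the brown adipocyte uncoupling protein, had a median of 0 CPM in all 8 groups.

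Summed over all members, the OXPHOS genes made up a similar share of the transcripts in most groups, and the lowest median and the lowest library were in ASC2 of control males. The sum was 16561, 17229 and 19557 CPM (lowest, median and highest library) in ASC1 and 7357, 14933 and 17507 CPM in ASC2 of control males. In castrated males it was 14610, 16248 and 17485 CPM in ASC1 and 10782.5, 17604 and 22065 CPM in ASC2. Control females had 11154, 16935 and 18126 CPM in ASC1 and 16303, 18571 and 22772 CPM in ASC2. The 3 ovariectomized ASC1 libraries had 17685, 18142 and 19480.5 CPM, and ovariectomized ASC2 16146, 17736 and 20700.5 CPM. Every pair of groups compared overlapped in this sum, and the 5 libraries with the lowest sums were among the 6 with low ribosomal protein genes. Without those, the range in control male ASC2 was 14287 to 17507 CPM with a median of 16416 (n = 5), and in castrated ASC2 16729 to 22065 CPM with a median of 17968 CPM (n = 6). In bulk libraries, fewer cells of a type and less RNA per cell cannot be told apart.

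**Figure D1:**
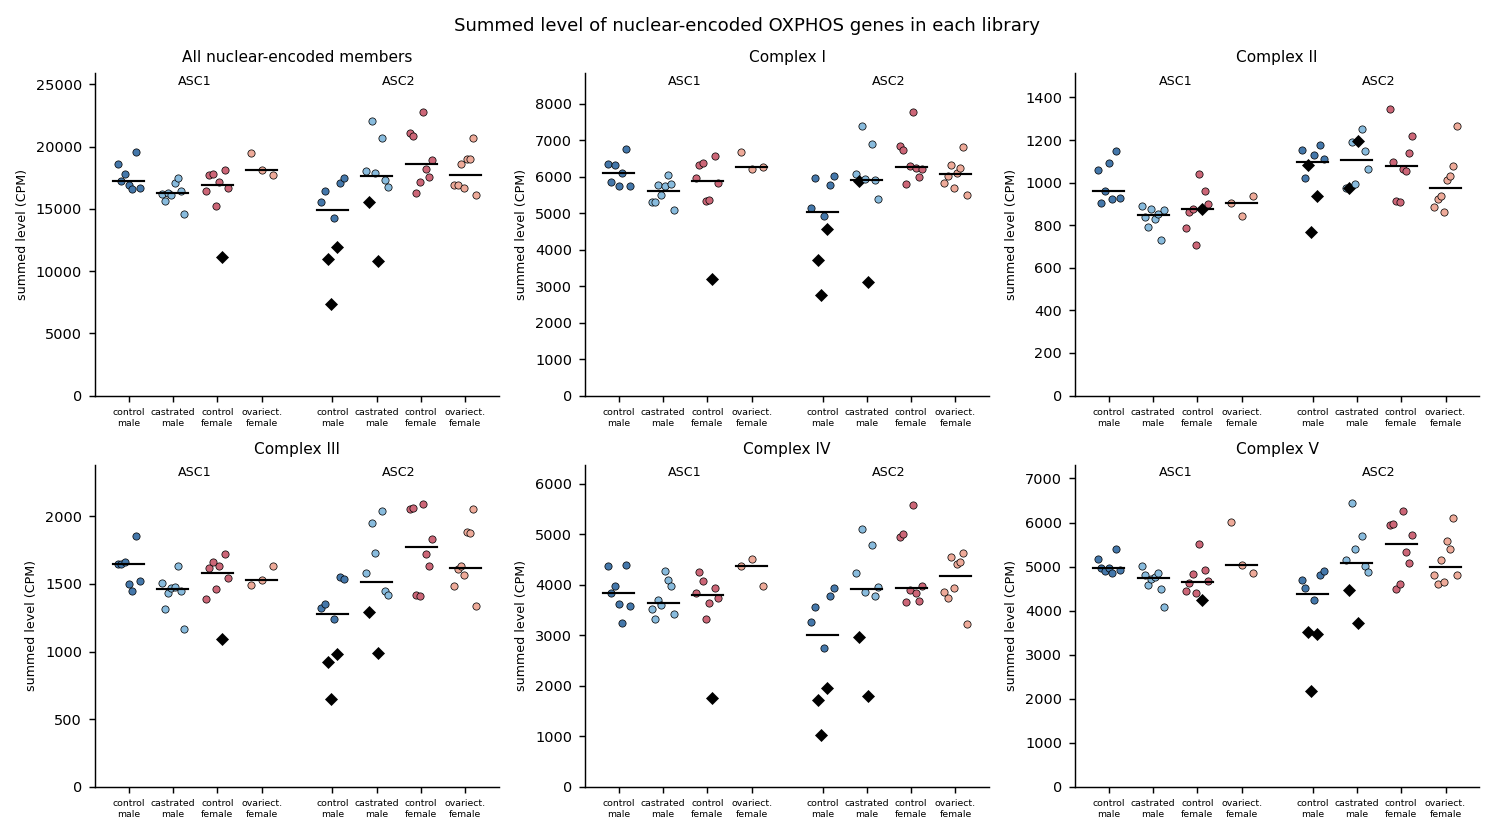
Summed level (CPM on TMM-scaled library sizes) of all members and of the members of each complex in each of the 58 libraries, by group, with ASC1 at the left and ASC2 at the right of each panel. Points are libraries, bars are group medians, and black diamonds are the 6 libraries in which cytosolic ribosomal protein genes summed to under 50000 CPM. The control male ASC2 group spans 7357 to 17507 CPM for all members, whereas complex II lies between 708 and 1344 CPM in all libraries.

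By complex, the sums moved together except for complex II. Over the 55 libraries other than ovariectomized ASC1, Pearson's r with the sum of all members was 0.96 for complex I, 0.97 for complex III, 0.98 for complex IV and 0.95 for complex V, but 0.33 for complex II. Each of these sums is itself a part of the total and comes from the same libraries, so that the values are descriptions. In the sum of complex IV, control male ASC2 ranged from 1019 to 3924 CPM (median 3004) and control female ASC2 from 3659 to 5569 CPM (median 3936), and complex II had medians of 1098 and 1079 CPM in the same groups. The total also followed the cytosolic ribosomal protein genes (r = 0.91, n = 55) and 396 other genes with an exon length under 1000 bases (r = 0.91), less so the mitochondrial ribosome (r = 0.81), and hardly the TCA cycle (r = 0.27) or the subunits encoded by mitochondrial DNA (r = 0.12). The members tested were short, with a median exon length of 1569 bases against 4424 bases over all genes tested. Whether depth, RNA quality or transcript length had a part in the differences below was not tested.

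**Figure D2:**
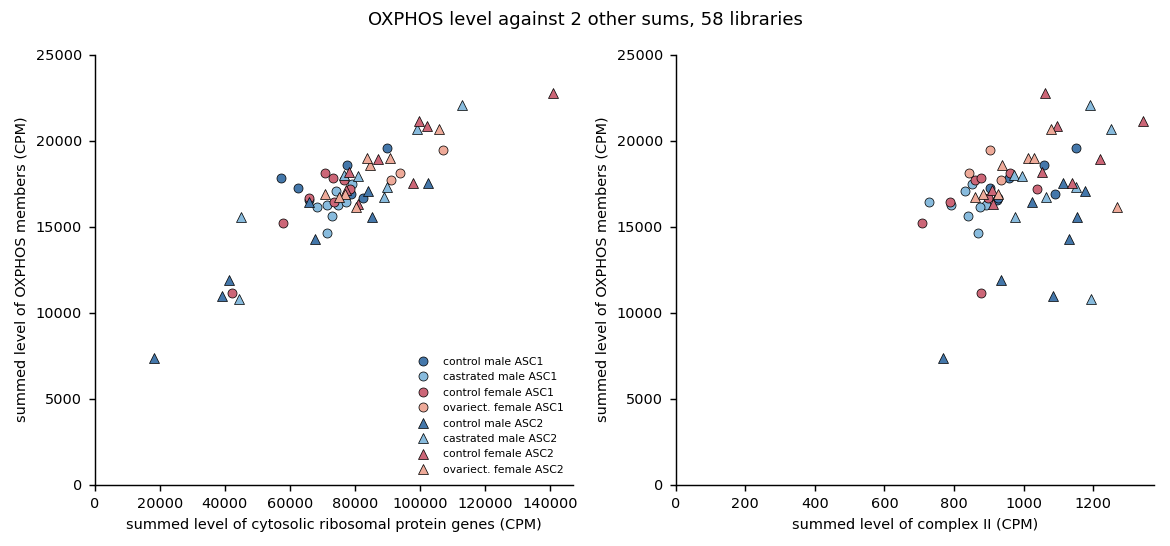
Summed level of the OXPHOS members (CPM, vertical) against that of the cytosolic ribosomal protein genes (left) and of complex II (right) in the 58 libraries, coloured by group, with circles for ASC1 and triangles for ASC2. Libraries low in ribosomal protein genes are low in OXPHOS members, down to 7357 CPM in control male ASC2 D, whereas the complex II sum, between 708 and 1344 CPM, follows the total less closely.

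Per kb of exon, the member with the highest mean level belonged to complex IV. The exon length used counts every annotated exon of a gene and can exceed the length of its transcripts. The order therefore depends on this scale. Without the division, the highest means were 844 CPM for Cox4i1, 660 for Atp5b, 653 for Cox6b1 and 623 for Atp5a1, of complexes IV and V. The mean level over all libraries was 922 CPM per kb of exon for Cox6b1, 545 for Cox4i1 and 510 for Cox6a1, all of complex IV, and 539 CPM per kb for the complex I subunit Ndufa2. The median member had 202 CPM per kb in complex IV, 154 in complex III, 114 in complex II, 95.8 in complex V and 88.6 in complex I. Of the tissue-specific isoforms, Cox7b2 and Cox8c had no read in any library. Atp5g2, Ndufb4 and Ndufb4c had a copy at least 95% identical over 200 bases or more that took over 10% of the reads of the pair, as did Ndufs6b, Cox6c2 and a second Atp5o identifier, which had 11 reads or fewer each, so that their levels are uncertain.

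Of the 83 members, 45 passed the threshold (edgeR quasi-likelihood test, Benjamini-Hochberg adjusted p under 0.05 over all 12464 genes tested) in at least 1 of the 10 two-group comparisons, and 38 in none, where 52.1% of all genes passed in at least 1. In the 8 comparisons without ovariectomized ASC1, 37 members passed at least once, where 25.3% of all genes did. Among the subunits that carry cofactors or the catalytic sites, Ndufs3, Ndufs8, Ndufv2, Sdhb, Sdhc, Uqcrc1 and Uqcrfs1 passed in none. Cox5a, a subunit that joins complex IV early in its assembly, passed in 5 of the 10, the largest number. Because groups recur in several comparisons, the calls of different comparisons are not independent.

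**Figure D3:**
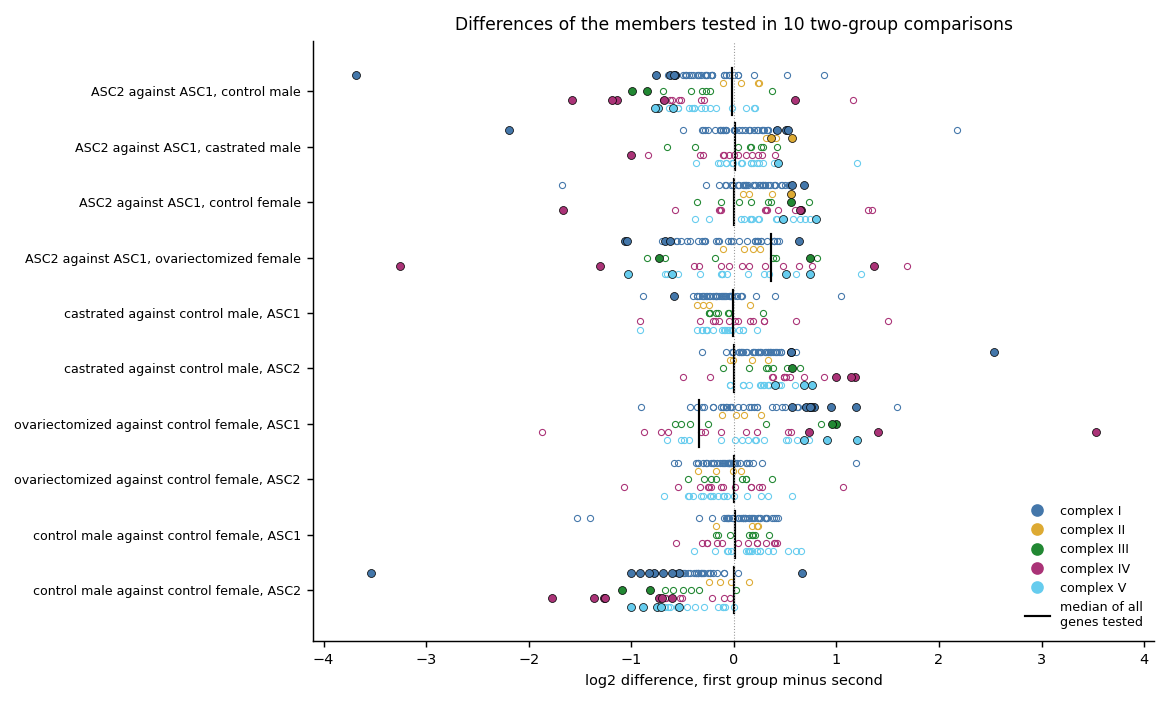
Log2 difference (first group minus second) of each member tested in the 10 two-group comparisons, with a line of points for each complex. Filled points passed the threshold, open points did not, and the black bar is the median of all 12464 genes tested, which is displaced in the comparisons with ovariectomized ASC1. The values of Ndufb4c in the 2 comparisons with ovariectomized ASC2, which had no read of it, lie beyond the axis (-8.18 and -6.88).

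The first question is whether the level of OXPHOS genes differed between the sexes in controls, and all members that passed the threshold were in ASC2. In ASC2, 22 members were lower and 1 was higher in libraries labelled male, where 2.87% of all genes tested were lower and 3.63% higher. They comprised 8 of 39 members of complex I, none of the 4 of complex II, 2 of 8 of complex III, 7 of 14 of complex IV and 5 of 18 of complex V. The median log2 difference over the members was -0.48, against 0.00 over all genes tested, and 78 of 83 lay below 0. By complex, the medians were -0.39 (I), -0.08 (II), -0.55 (III), -0.66 (IV) and -0.53 (V).

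Uqcrq, the ubiquinone-binding protein of complex III, was at 62.5, 128 and 165 CPM (lowest, median, highest) in control male ASC2 and at 211, 261 and 308 CPM in control female ASC2. All 8 male libraries were below all 8 female ones, and the difference was -1.09 ± 0.19 (log2, SE), with an adjusted p of 9.6e-05 by edgeR. Cox8a, the ubiquitous form of a small subunit of complex IV, had 53.2, 97.1 and 167 CPM in males and 169, 256 and 330 CPM in females, again without overlap, and differed by -1.26 ± 0.23 (edgeR adjusted p = 0.000243). Atp5g3, which encodes the c-ring subunit of ATP synthase, was at 37.9, 135 and 217 CPM and 186, 283 and 355 CPM, and its groups overlapped in range while the difference was -1.0 ± 0.19 (edgeR adjusted p = 0.00043). Cox5b, the zinc-binding subunit of complex IV, had 22.3, 82.6 and 242 CPM in males and 137, 245 and 522 CPM in females (-1.37 ± 0.30, edgeR adjusted p = 0.00256), which overlapped too.

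In complex I, Ndufb9, an accessory subunit of the membrane arm, was at 40.2, 91.5 and 140 CPM in control male ASC2 and 143, 175 and 214 CPM in control female ASC2, with no overlap and a difference of -0.83 ± 0.17 (edgeR adjusted p = 0.00141). Ndufs1, the largest iron-sulfur subunit of the NADH-oxidizing arm, was the exception and was higher in males, with 54.6, 111 and 152 CPM against 51.1, 58.5 and 93.7 CPM (0.67 ± 0.19, edgeR adjusted p = 0.0256), the ranges overlapping. Of the core of ATP synthase, the catalytic beta subunit Atp5b differed by -0.53 ± 0.15 (edgeR adjusted p = 0.0172) and the epsilon subunit Atp5e by -0.89 ± 0.23 (edgeR adjusted p = 0.0106). Cox4i1, the main isoform of the regulatory subunit of complex IV, differed by -0.61 ± 0.17 (edgeR adjusted p = 0.0213). The remaining members that were lower were Ndufa2, Ndufa6, Ndufb2, Ndufb6, Ndufb7, Ndufb11, Uqcrh, Cox5a, Cox6c, Cox7c, Atp5d and Atp5mpl and the isoforms Ndufa4l2 and Cox7a1. Cytosolic ribosomal protein genes moved in the same direction, 17 of 63 being lower and none higher, and so did 30 of the 396 other short genes against 3 higher. Without the 6 libraries low in ribosomal protein genes, 5 members were lower and none higher (Uqcrq, Cox8a, Atp5g3, Ndufb9 and Ndufa4l2), and the median was -0.24. Without the libraries whose sex-linked reads went against or mixed the labelled sex, 4 were lower and none higher. Leaving out control male ASC2 D alone gave 12 calls, and leaving out control male ASC2 H gave 35.

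In ASC1 the edgeR test called 0 members in either direction between control males and control females, where 0.136% of all genes were higher and 0.152% lower. At an unadjusted p under 0.05, 3 were higher and 1 lower, and DESeq2 also called 0. The median over the members was 0.15. When the sex difference itself was compared between ASC2 and ASC1, by an interaction that was added after the data had been seen, 0 members passed by edgeR (0.0642% of all genes were called in each direction), 46 were lower and 1 higher at an unadjusted p under 0.05, and DESeq2 called 6, all lower. The median of this difference over the members was -0.63.

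**Figure D4:**
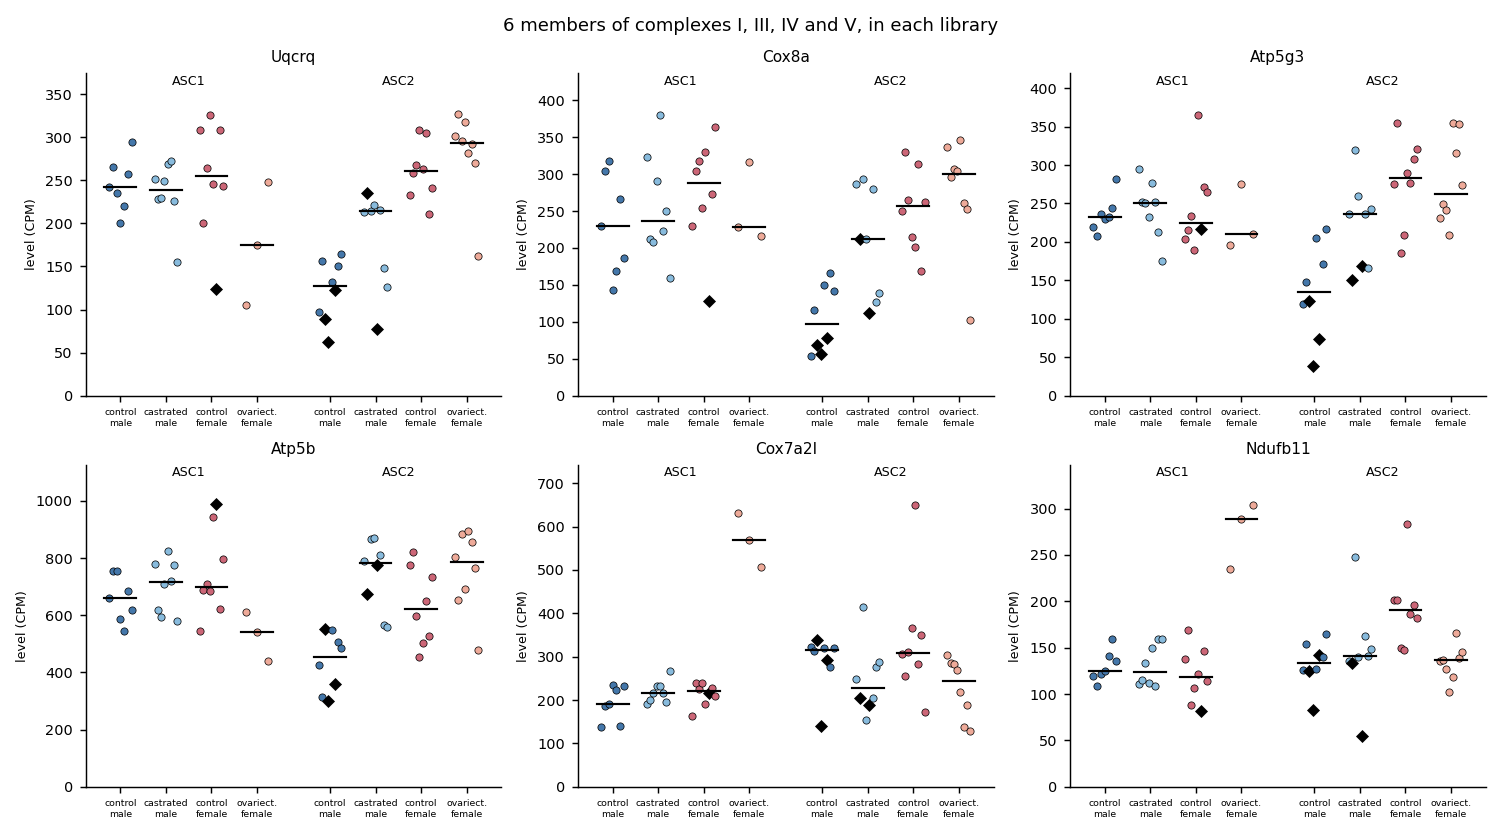
Level (CPM on TMM-scaled library sizes) of Uqcrq, Cox8a, Atp5g3, Atp5b, Cox7a2l and Ndufb11 in each library, by group, with ASC1 at the left and ASC2 at the right of each panel. Points are libraries, bars are medians, and black diamonds are the 6 libraries low in ribosomal protein genes. Uqcrq and Cox8a are low in control male ASC2 (62.5 to 165 and 53.2 to 167 CPM), and Cox7a2l and Ndufb11 are high in the 3 ovariectomized ASC1 libraries.

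Castration was compared with intact males to ask whether loss of testicular hormones changes these genes. Control libraries carry the letters A to H in their labels, and those of castrated and ovariectomized mice the letters I to P. A difference between the sets of letters therefore cannot be told apart from one of surgery. In ASC2, 10 members were higher after castration and none lower, beside 2.65% of all genes higher and 4.32% lower. The median over the members was 0.33 and over all genes 0.00, and 72 of 83 members lay above 0. The calls fell on complex I (3 of 39), III (1 of 8), IV (3 of 14) and V (3 of 18). Control male ASC2 was the reference here as well as in the comparison with females, and the values share those 8 libraries.

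Atp5b, the catalytic beta subunit of ATP synthase, was at 299, 454 and 553 CPM in control and 559, 783 and 870 CPM in castrated male ASC2. Every castrated library was above every control library, and the difference was 0.76 ± 0.15 (edgeR adjusted p = 0.000459). Cox8a rose to 111, 212 and 293 CPM after castration, from the levels given above, a difference of 0.99 ± 0.23 (edgeR adjusted p = 0.00389) with overlapping ranges. Its partners Cox5b (1.14 ± 0.30, edgeR adjusted p = 0.0127) and Cox5a (1.18 ± 0.35, edgeR adjusted p = 0.0276) and the c-ring gene Atp5g3 (0.68 ± 0.19, edgeR adjusted p = 0.0203) also were higher. Uqcrq had 77.3, 214 and 236 CPM in castrated ASC2 and was higher by 0.57 ± 0.19 (edgeR adjusted p = 0.0483). The other calls were Ndufb6, Ndufb7, the isoform Ndufa4l2 and the alpha subunit Atp5a1. Without the 6 libraries low in ribosomal protein genes, 3 of which were control male ASC2, Atp5b was the only member called (0.72 ± 0.17, edgeR adjusted p = 0.0158), and the median over the members was 0.21. Leaving out control male ASC2 D alone left 3 calls. Summed endothelial markers were 10.6 to 38.9 CPM in control and 36.8 to 92.6 CPM in castrated ASC2, and summed macrophage markers 65.7 to 191 and 116 to 615 CPM, and their part in the result was not tested.

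In ASC1, 1 member was lower and none higher after castration, with 1.3% of all genes lower and 1.06% higher. This was Ndufb8, an accessory subunit of complex I often used as a marker of its assembly, at 285, 318 and 433 CPM in control and 164, 226 and 283 CPM in castrated ASC1. The groups did not overlap, and the difference was -0.59 ± 0.17 (edgeR adjusted p = 0.0385). In ASC2 the levels of Ndufb8 were 196, 257 and 396 CPM in control and 151, 330 and 475 CPM in castrated males. The castration effect of Ndufb8 differed between ASC2 and ASC1 by 0.84 ± 0.23 (edgeR adjusted p = 0.0318), and it was the only member called in this interaction (1 higher and none lower, beside 1.53% and 0.883% of all genes). With 1 call of 83 members, neither count stands out from the shares over all genes. Castration in ASC1 gave 0 calls with RLE, with library size only and with no count filter. The interaction gave 0 with no count filter and with only the groups compared. All 8 castrated ASC1 libraries had sex-linked reads against their label, so that neither comparison could be repeated without such libraries.

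ASC2 was compared with ASC1 within each condition to ask how the DPP4+ and DPP4- cells differ. In control males 14 members were lower and 1 higher in ASC2, beside 5.3% of all genes lower and 6.88% higher, and the median was -0.35 against -0.01 over all genes. Uqcrq had 201, 242 and 294 CPM in ASC1, above every ASC2 library, and differed by -1.0 ± 0.19 (edgeR adjusted p = 0.000176). Cox8a (-1.14 ± 0.24, edgeR adjusted p = 0.000522), Cox5a (-1.58 ± 0.35, edgeR adjusted p = 0.00119) and Atp5b (-0.59 ± 0.15, edgeR adjusted p = 0.00585) were lower as well, with Cox8a at 143, 229 and 317 CPM in ASC1. Ndufs7, which carries the last iron-sulfur cluster before ubiquinone, was lower by 0.63 ± 0.17 on the log2 scale (edgeR adjusted p = 0.0103). The single member that was higher was Cox7a2l, a factor of the supercomplex between complexes III and IV, with 138, 190 and 235 CPM in ASC1 and 141, 316 and 338 CPM in ASC2 (0.59 ± 0.19, edgeR adjusted p = 0.0342). Without the 6 libraries, 6 members were lower and 1 higher, and the median was -0.13, and without control male ASC2 C alone 9 members were called.

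In control females the calls ran the other way. There, 8 members were higher and 1 was lower in ASC2, beside 3.54% of all genes higher and 2.58% lower, with a median of 0.27. Ndufb11, an X-linked accessory subunit of complex I, was at 82.2, 118 and 169 CPM in ASC1 and 148, 191 and 284 CPM in ASC2 (0.69 ± 0.17, edgeR adjusted p = 0.00576), with overlap. Sdhd, a membrane anchor of complex II, had 129, 191 and 246 CPM in ASC1 and 197, 290 and 374 CPM in ASC2 (0.55 ± 0.14, edgeR adjusted p = 0.00681). The gamma subunit Atp5c1 (0.48 ± 0.14, edgeR adjusted p = 0.0189), Atp5e (0.80 ± 0.23, edgeR adjusted p = 0.024), Cox7a2l (0.64 ± 0.19, edgeR adjusted p = 0.0249) and the core protein Uqcrc2 (0.55 ± 0.17, edgeR adjusted p = 0.0317) were higher too, as were Cox6c and Ndufb5. No member passed without the libraries whose sex-linked reads went against or mixed their label, which left 3 and 2 libraries, and the difference of Uqcrc2 was then -0.000703. Without control female ASC2 E, 2 members passed.

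In castrated males 6 members were higher and 2 lower in ASC2, beside 4.47% of all genes higher and 4.62% lower, with a median of 0.11. Complex II took 2 of the 6 higher calls. Sdhd was at 146, 166 and 212 CPM in ASC1 and 194, 253 and 315 CPM in ASC2 (0.56 ± 0.14, edgeR adjusted p = 0.00479), and Sdha, the flavoprotein that oxidizes succinate, at 286, 316 and 340 CPM and 324, 400 and 498 CPM (0.37 ± 0.12, edgeR adjusted p = 0.032). Both overlapped in range. Ndufb8 (0.51 ± 0.16), Ndufb10, Ndufa9 and Atp5c1 were the other members that were higher, and Cox5a (-1.0 ± 0.31, edgeR adjusted p = 0.0297) and Ndufa4l2 were lower. Without castrated ASC2 J and M, which were low in ribosomal protein genes, and the other 4 such libraries, 17 members were higher and 1 lower. With library sizes alone as the scale, 1 was higher and 2 were lower, and without castrated ASC1 M 2 members were called.

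In ovariectomized females 10 members were lower and 5 higher in ASC2, beside 12.9% of all genes lower and 22.5% higher, and the median was -0.05 against 0.37 over all genes. With 10 lower calls among 83 members tested, the lower count does not stand out from the share over all genes. The 5 higher calls fall below the share of all genes that were higher. This comparison rests on the 3 ASC1 libraries that stood apart. Cox7a2l (-1.30 ± 0.24, edgeR adjusted p = 2.18e-05) and Ndufb11 (-1.05 ± 0.22, edgeR adjusted p = 0.000199) were lower in ASC2, and Cox5a (1.37 ± 0.50, edgeR adjusted p = 0.026) and Uqcrq (0.74 ± 0.27, edgeR adjusted p = 0.0267) higher. With library sizes alone as the scale, 16 members were higher and 5 lower, and without ovariectomized ASC1 L 6 members were called.

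Ovariectomized and control females were compared to ask about the loss of ovarian hormones. As with castration, surgery and the letters of the labels cannot be told apart here. In ASC1, 16 members were higher and none lower after ovariectomy, beside 12.7% of all genes higher and 22.1% lower. The median over the members was 0.15 and over all genes -0.34, so that these changes are read against a shifted background. The calls were spread over complex I (8 of 39), III (2 of 8), IV (3 of 14) and V (3 of 18).

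Cox7a2l was at 632, 569 and 508 CPM in the ovariectomized ASC1 libraries L, N and P and at 164, 222 and 240 CPM in control female ASC1. All 3 libraries were above all controls, and the difference was 1.41 ± 0.24 (edgeR adjusted p = 6.14e-06). Ndufb11 had 234, 289 and 303 CPM in L, N and P, above the highest of the 8 controls, and differed by 1.19 ± 0.22 (edgeR adjusted p = 3.1e-05). Atp5h, subunit d of the peripheral stalk of ATP synthase, was at 490, 450 and 403 CPM against 124, 204 and 261 CPM in controls, without overlap (1.2 ± 0.27, edgeR adjusted p = 0.000371). Uqcrc2 had 218, 115 and 186 CPM against 65.0, 85.8 and 124 CPM, with library N inside the control range (1.00 ± 0.22, edgeR adjusted p = 0.000335). Atp5c1 was higher by 0.68 ± 0.18 (edgeR adjusted p = 0.00227) and Ndufv1, the subunit that binds NADH, by 0.57 ± 0.20 (edgeR adjusted p = 0.023). The subunits encoded by mitochondrial DNA were higher as well, 10 of 13 passing the threshold and none being lower, with mt-Nd2 at 3.05 ± 0.28 (edgeR adjusted p = 8.42e-13). With library sizes alone as the scale, 5 members were higher and 9 lower, so that the direction of the list depends on the scaling. Without library L, 7 members were called.

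In ASC2, the edgeR test called 0 members after ovariectomy, where 0.65% of all genes were higher and 1.44% lower. At an unadjusted p under 0.05, 1 was higher and 8 were lower, DESeq2 called 1 higher, and the median was -0.11. The ovariectomy effect differed between ASC2 and ASC1 for 3 members upward and 18 downward, beside 22.1% and 12.6% of all genes, with a median of -0.28 against 0.40 over all genes, and without ovariectomized ASC1 L 13 members were called. Cox7a2l (-1.95 ± 0.31, edgeR adjusted p = 1.14e-06) and Ndufb11 (-1.73 ± 0.28, edgeR adjusted p = 2.06e-06) had the smallest p-values, and Cox5a (1.94 ± 0.59, edgeR adjusted p = 0.00783), Atp5b and Atp5d differed upward. Their levels in ASC2 were 173, 310 and 649 CPM (Cox7a2l) and 148, 191 and 284 CPM (Ndufb11) in controls, and 128, 244 and 304 CPM and 102, 136 and 165 CPM after ovariectomy.

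Complex II gave 3 calls in the 10 two-group comparisons. None of its 4 subunits was called between the sexes, after castration or after ovariectomy. Its calls were Sdhd, higher in ASC2 than in ASC1 of control females and castrated males, and Sdha, higher in castrated males. Of all genes tested, 3.54% were higher in ASC2 of control females and 4.47% in ASC2 of castrated males. Sdha had group medians of 316 to 414 CPM, Sdhb, the iron-sulfur subunit, of 273 to 347 CPM, Sdhc of 66.7 to 101 CPM and Sdhd of 166 to 290 CPM. With 4 subunits, a count of 0 says little about how the complex compares with the others, and the difference between complexes was not tested.

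Of the isoforms known from other tissues or states, 4 had enough reads to be tested. Each passed the threshold in at least 1 two-group comparison, as did 52.1% of all genes tested. Cox4i2, Cox7a1 and Cox6b2 had few reads, with means of 6.08, 6.06 and 5.61 CPM over all libraries. Ndufa4l2, a hypoxia-induced relative of Ndufa4 named as a complex I gene although Ndufa4 itself is a subunit of complex IV, was at 19.2, 64.3 and 104 CPM in control male ASC1 and 0, 4.56 and 9.65 CPM in control male ASC2, without overlap (-3.69 ± 0.81, edgeR adjusted p = 0.00109). In ASC2 it was lower in control males than in control females by 3.54 ± 0.80 on the log2 scale (edgeR adjusted p = 0.00302), although the female libraries split into C and D at 184 and 214 CPM and 6 others at 3.17 to 14.0 CPM. Ovariectomized ASC2 was split in the same manner, with I to L at 179 to 264 CPM and M to P at 7.69 to 14.8 CPM, and so was control female ASC1, where E and F had 16.1 and 12 CPM and the other 6 libraries 190 to 296 CPM. A group median is therefore a poor summary of this gene, and the difference between the sexes in ASC2 rests on 2 of the 8 female libraries. Summed mural markers, the vascular support cells in which the gene is known to be high, were 2015 and 2449 CPM in control female ASC2 C and D and 225 to 656 CPM in the other 6, but 2865 to 3574 CPM in ovariectomized ASC2 I to L and 1320 to 3092 CPM in M to P, while the pericyte marker Rgs5 stayed at 0 to 18.3 CPM in all libraries. Their part in the values was not tested.

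Cox4i2, the lung and hypoxia isoform of Cox4i1, was lower in ASC2 than in ASC1 of control females, with 0, 14.0 and 19.99 CPM in ASC1 and 0, 4.66 and 5.56 CPM in ASC2 (-1.66 ± 0.54, edgeR adjusted p = 0.0488). Cox7a1, the heart and brown fat isoform, was lower in control male than in control female ASC2, at 0, 2.84 and 9.44 CPM and 3.67, 8.35 and 19.0 CPM (-1.78 ± 0.53, edgeR adjusted p = 0.0309). Cox6b2, the testis isoform, had 3.43, 50.5 and 37.2 CPM in ovariectomized ASC1 L, N and P, from few reads, against 0, 1.28 and 6.03 CPM in controls (3.53 ± 0.81, edgeR adjusted p = 0.000475). Library L lay within the control range. Of the muscle isoforms, Cox6a2 and Cox8b had too few reads to be tested.

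**Figure D5:**
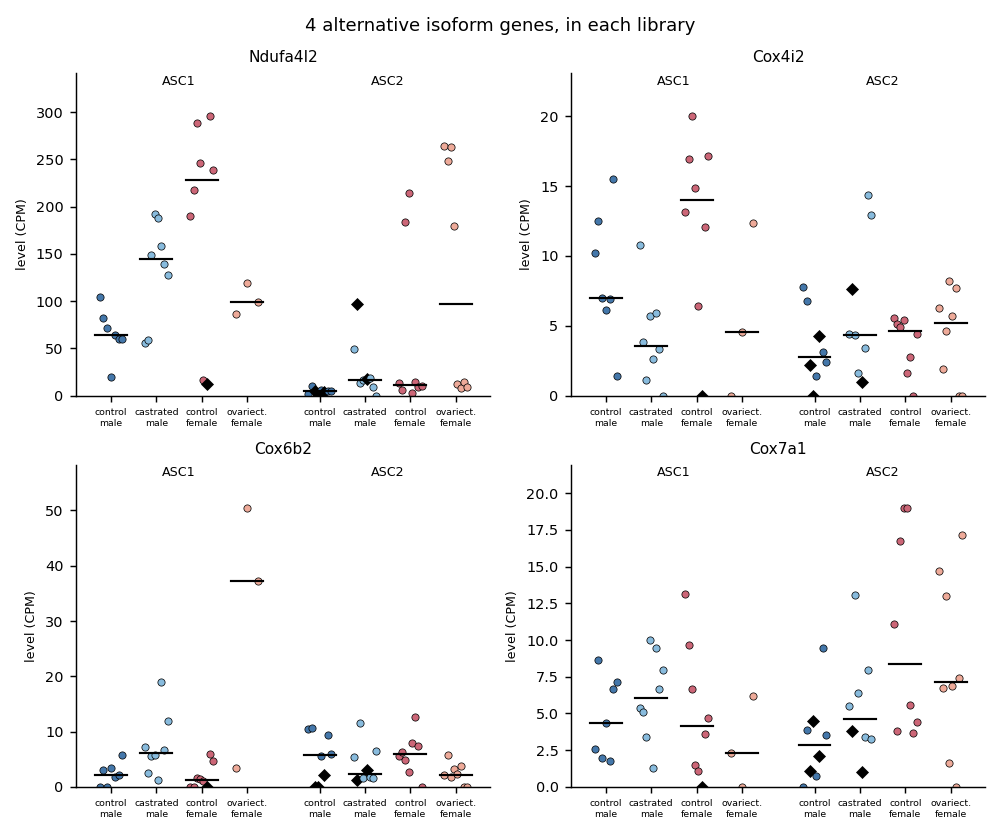
Level (CPM on TMM-scaled library sizes) of Ndufa4l2, Cox4i2, Cox6b2 and Cox7a1 in each library, by group, with ASC1 at the left and ASC2 at the right of each panel. Points are libraries, bars are medians, and black diamonds are the 6 libraries low in ribosomal protein genes. Ndufa4l2 falls into separate high and low libraries in control and ovariectomized females, and Cox6b2 is high in 2 of the 3 ovariectomized ASC1 libraries.

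Genes that work with the complexes were followed by list. Of all genes tested, 2.87% were lower and 3.63% higher in control male than in control female ASC2. After castration in ASC2, 2.65% were higher and 4.32% lower, and the counts for these comparisons are read against these shares. Atpif1, the inhibitor of ATP synthase, passed in none of the comparisons, with group medians of 185 to 290 CPM. Of cytochrome c and the carriers that exchange adenine nucleotides and phosphate across the inner membrane (4 genes), the phosphate carrier Slc25a3 was lower in control male than control female ASC2 by 1.04 ± 0.20 on the log2 scale (edgeR adjusted p = 0.000345) and higher after castration in ASC2 (1.13 ± 0.20, edgeR adjusted p = 9.8e-05). Of 16 mitochondrial import genes, 3 were lower in control male ASC2 than in control female ASC2 (Timm13, Timm23 and Tomm7), and 3 were higher after castration in ASC2 (Timm13, Timm23 and Timm50), none moving the other way. Of 75 genes of the mitochondrial ribosome, 14 were lower and 1 higher in the first of these comparisons, led by Mrpl43 (-1.16 ± 0.19, edgeR adjusted p = 5.65e-05), and 3 were higher and 1 lower in the second.

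Of 42 assembly factors, 2 were lower in control male than control female ASC2 (Cox14 and Ndufaf8), where 2.87% of all genes were lower. None was called after castration in ASC2. Of 13 TCA cycle genes, 1 was lower in the former comparison (Fh1) and 3 were higher in the latter (Dlst, Idh3b and Fh1). The 13 subunits encoded by mitochondrial DNA gave 1 call, mt-Cytb higher, and 0. Among 12 transcriptional regulators of the pathway, Yy1 was lower (-1.11 ± 0.30, edgeR adjusted p = 0.0155) and Ppard higher (0.93 ± 0.30, edgeR adjusted p = 0.0439) in control male than in control female ASC2, and none was called after castration. After ovariectomy in ASC1, where 12.7% of all genes were higher and 22.1% lower, the regulators gave 1 call higher, the mitochondrial transcription factor Tfam (1.21 ± 0.33, edgeR adjusted p = 0.00327), and 4 lower, led by Pprc1 (-3.81 ± 0.64, edgeR adjusted p = 3.99e-06), and the assembly factors 7 higher and 4 lower. The TCA cycle then gave 1 higher and 3 lower, with citrate synthase (Cs) at -1.39 ± 0.28 (edgeR adjusted p = 0.000104).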

How the data were processed

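RNA of sorted ASC1 and ASC2 was measured in 58 bulk Smart-seq3 libraries. Per their methods, the authors removed adapters (NGmerge), inspected quality (FastQC 0.11.9, STAR 2.7.10a), quantified transcripts of the Gencode annotation of GRCm39 (Salmon 1.9.0), summed UMI and other reads, and dropped libraries in which under 8500 genes were detected. The deposited values are estimated counts, not normalized, and 15.0% of those above 0 were not whole. Groups follow the labels, and all libraries entered the fit.

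Counts were rounded and tested in R 4.3.3 with edgeR 4.0.16 (TMM, glmQLFit, glmQLFTest), in a fit of all 58 libraries with 1 coefficient for each group. A gene was tested if more than 3 libraries held at least 5 reads of it, which left 12464 genes. Benjamini-Hochberg adjustment ran over all of them, with a threshold of 0.05. Log2 differences are given with their standard error, and CPM are on TMM-scaled library sizes. The lower the depth, the less precise are genes with few reads. The members and lists were chosen with earlier results of these data known, and no test was run over a list. Named are the subunits with catalytic or cofactor sites, isoforms of other tissues or states, the members of each complex that passed most often (up to 4), members against the direction of their complex, and up to 4 genes of each related list. Genes outside this rule (Sult1e1, C7, Atp5h, Ndufa6, Ndufb4c, those named by level per length and those in lists of remaining calls) were chosen after their values were seen. Symbols and exon lengths came from an older Gencode release on GRCm38, and promoters from RefSeq on GRCm38.p6.

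No 2 libraries of a group agreed within sampling noise (chi-square per gene of 1.53 or more). As alternatives, size factors by RLE, library size alone, all genes without a filter, DESeq2 1.42.0, a fit to the compared groups alone, a replicate block, and the removal of single libraries or of those with sex-linked reads against or mixing their label were tried. Leaving out the libraries low in ribosomal protein genes, or single libraries other than the 3 of ovariectomized ASC1, was chosen after seeing the data, as were the interaction between sex and cell type and the block in the interactions.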

Additional observations from a re-analysis of the deposited data

Results flagged for a closer look

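Libraries whose value lay far from the rest of their group, by Dixon's criterion, were counted over the summed levels (4 of 42 groups) and over 18 named genes (13 of 126 groups), where chance gives about 1 in 20. Control female ASC1 F was low in the sum of all members (11154 CPM), of complex I (3196 CPM) and of complex IV (1759 CPM), and castrated ASC2 M in that of complex I (3102 CPM), and both were among the libraries low in ribosomal protein genes. Control female ASC2 E was high in Ndufb11 (284 CPM), Uqcrh (538 CPM), Cox7a2l (649 CPM) and Atp5e (386 CPM). Ovariectomized ASC2 P was low in Uqcrq (163 CPM) and Cox8a (103 CPM), and castrated ASC1 P was low in Uqcrq (156 CPM). Control male ASC1 H was low in Sdha (313 CPM) and control male ASC2 D in Cox7a2l (141 CPM). Castrated ASC1 M was high in Cox5a (83.7 CPM) and control female ASC1 E in Atp5g3 (365 CPM). Atp5e was low in control female ASC1 F (50.1 CPM) and high in ovariectomized ASC2 O (247 CPM).

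The effect of an operation differed between ASC2 and ASC1, by edgeR's test of the difference, for Ndufb8 after castration (0.84 on the log2 scale) and for 21 members after ovariectomy, where the median over all genes was 0.40. The ovariectomy effect was more positive in ASC2 for Cox5a (1.94), Atp5d (0.98) and Atp5b (0.75). It was more negative in ASC2 for Cox7a2l (-1.95), Ndufb11 (-1.73), Ndufc2 (-1.53), Atp5h (-1.52), Uqcrh (-1.40), Atp5e (-1.35), Uqcrc2 (-1.28), Ndufb5 (-1.13), Ndufb10 (-1.12), Atp5c1 (-1.08), Atp5l (-1.06), Cox7c (-0.98), Ndufc1 (-0.96), Ndufa13 (-0.91), Ndufs4 (-0.79), Ndufb9 (-0.75) and Cox6b2 (-4.60). Ndufb4c, an expressed copy of Ndufb4 whose reads cannot be told apart with certainty, had a fitted value of -8.47, which comes from a group without a read and gives no bound on the difference. All of these rest on the 3 ovariectomized ASC1 libraries.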

How the results depend on the processing

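Of 97 counts of members called under another setting, 53 stayed within 1.5 times the count under the settings used in the report with the same prevailing direction. Scaling by library size only turned the direction of 3 counts, to 14 calls for ovariectomized against control female ASC1 (5 higher, 9 lower, median -0.17, summed level of ovariectomized ASC1 15373 CPM against 19766 CPM with RLE), 21 for ASC2 against ASC1 after ovariectomy (16 higher, median 0.24) and 3 in castrated males (1 higher), and it moved the median of the ovariectomy effect, ASC2 minus ASC1, to 0.10 and the calls in control females to 4. In castrated males the direction also turned with no count filter (2 calls, both lower), with only the groups compared (3 calls) and without castrated ASC1 K (3 calls), and RLE gave 5 calls.

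Without the libraries low in ribosomal protein genes, the calls were 7 for ASC2 against ASC1 in control males, 18 in castrated males and 24 in ovariectomized females, 1 for castration and 2 for ovariectomy in ASC2, 5 between the sexes in ASC2 and 2 for the castration effect, ASC2 minus ASC1, and the median of the control sex difference, ASC2 minus ASC1, was -0.32. Without the libraries against or mixing the labelled sex they were 0 for ASC2 against ASC1 in control females and 9 after ovariectomy, 6 for castration in ASC2, 4 between the sexes in ASC2 and 7 for the ovariectomy effect, ASC2 minus ASC1, and Uqcrc2 in ASC2 against ASC1 of control females was at -0.000703. With only the groups compared, the calls were 8 (control males) and 2 (control females) for ASC2 against ASC1, 2 and 3 for castration in ASC1 and ASC2, 1 for ovariectomy in ASC2, 8 between the sexes in ASC2 and 0 for the castration effect. With no count filter they were 4 in control and 9 in ovariectomized females for ASC2 against ASC1, 0 and 6 for castration in ASC1 and ASC2, 2 for ovariectomy in ASC2, 0 for the castration effect and 2 for the control sex difference. DESeq2 gave 1 for ovariectomy in ASC2, 3 for the castration effect and 6 for the control sex difference. RLE and library size only each gave 0 for castration in ASC1 and 1 for ovariectomy in ASC2.

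Leaving out each library in turn gave 9 (without control male ASC2 C) to 22 calls (without H) for ASC2 against ASC1 in control males, 2 to 11 in control females, 2 to 7 in castrated males and 6 to 16 in ovariectomized females. It gave 0 to 1 and 3 to 13 for castration in ASC1 and ASC2, 7 to 17 and 0 to 2 for ovariectomy, and 0 to 0 and 12 (without control male ASC2 D) to 35 (without H) between the sexes. The interactions gave 0 to 3 (castration), 13 to 23 (ovariectomy) and 0 to 7 (control sex difference). The medians ran from -0.45 to -0.26, 0.19 to 0.32, 0.03 to 0.17 and -0.071 to 0.079 for ASC2 against ASC1 in the same order, -0.16 to -0.10 and 0.23 to 0.42 for castration, 0.10 to 0.18 and -0.15 to -0.08 for ovariectomy, 0.05 to 0.16 and -0.56 to -0.39 between the sexes, and 0.36 to 0.55, -0.35 to -0.19 and -0.69 to -0.52 for the interactions.

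Whether libraries with the same letter in their labels belong together could not be decided. In none of the 6 pairings was the correlation of their deviations over 0.1 in every pair of same-lettered libraries. Low correlations do not exclude a pairing, and in control males ASC2 with ASC1 had 0.053 to 0.192 over 7 pairs. With the letter as a replicate block, the calls for ASC2 against ASC1 were 22 in control males, 6 in control females, 2 in castrated males and 5 in ovariectomized females, those between the sexes 0 in ASC1 and 30 in ASC2, and the interactions 0 (castration), 14 (ovariectomy) and 8, all lower (control sex difference, 0 without the block).

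Of 80 calls of named genes, 19 were kept under every alternative run for them and every single library left out, among them Uqcrq and Cox8a between the sexes in ASC2, Atp5b after castration in ASC2, and Cox7a2l and Ndufb11 after ovariectomy in ASC1, for which latter comparisons no block could be fitted. Ndufa4l2 between the sexes and Cox6b2 after ovariectomy were also kept, but each rests on 2 high libraries, which leaving out 1 at a time does not test. The cause of the other changes was not tested. The 3 ovariectomized ASC1 libraries limit all that rests on them.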
